A study of Mus musculus with 10 samples.

Results

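The V-ATPase and lysosomal membrane genes examined here were 42 mouse genes taken by name: subunits of the vacuolar proton pump and the factors that assemble it, LAMP glycoproteins, lysosomal channels and transporters, the Ragulator complex, and TFEB and TFE3. All 42 were found among 53700 gene identifiers and had a total count over 10, as did 19268 genes in all. They were measured in cortex of 10 female mice aged 4 months, 5 labelled 5XFAD and 5 labelled 5XFAD;Neu cKO. 5XFAD mice are a transgenic model of the amyloid deposition of Alzheimer's disease, and both groups had this background. The 5XFAD;Neu cKO group came from crosses with floxed Idol (Mylip) and Camk2a-Cre mice, in which Cre is driven in forebrain excitatory neurons after birth, and the 5XFAD group consisted of littermates with WT after Camk2a-cre in the label, an abbreviation that the study explains elsewhere as wild type for Idol. The comparison asked which of these genes differed in RNA level between 5XFAD;Neu cKO and 5XFAD cortex.

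The V-ATPase acidifies lysosomes, endosomes and synaptic vesicles. Its cytosolic V1 sector hydrolyses ATP and turns a rotor that drives protons through the membrane-embedded V0 sector, and several subunits exist as paralogs with different tissue and organelle use. In neurons the pump also powers the loading of neurotransmitter into synaptic vesicles. Around it, the lysosomal membrane holds heavily glycosylated LAMP proteins, channels and exchangers for calcium, chloride, potassium and protons, and the Ragulator complex. At Ragulator, amino acid supply is passed to mTORC1. TFEB and TFE3 are transcription factors that bind E-box motifs in promoters of lysosomal genes, the CLEAR element.

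Libraries were made with QuantSeq, which reads 1 tag near the 3′ end of each polyadenylated transcript, so that counts do not grow with transcript length. Levels can be compared only between genes whose 3′ ends have no copy elsewhere in the genome. For stretches of 76 bases this held for 36 of the 42 and not for Atp6v0c, Atp6v1g1, Lamtor3, Lamtor5, Atp6v1f and Lamtor1. Some of these 36, among them Lamp1, Atp6v0e2, Atp6v1d and Atp6v1e1, overlap a gene on the opposite strand there. The strand setting of the counting was not given. Their levels may therefore lack reads set aside as lying on both genes, or include reads of the other gene. Reads on genes numbered 4320504 to 7466192 per 5XFAD library and 5148499 to 7246659 per 5XFAD;Neu cKO library. Mylip, the targeted gene, was counted 45 to 108 times per 5XFAD library and 50 to 148 times per 5XFAD;Neu cKO library, and was not lower in the latter. These Mylip counts are not scaled to library size. Which part of Mylip is removed was not given in the sources used here, and a 3′ tag outside it cannot check the deletion, so the groups below are those of the labels. Markers of excitatory neurons summed to 4240 to 5160 CPM (reads on a gene scaled to a common library size with TMM normalization) in 5XFAD and 4117 to 4691 CPM in 5XFAD;Neu cKO, and were present in every library. Because the tissue is bulk cortex, fewer cells of a type and less RNA per cell cannot be told apart.

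Promoter windows were available for 33 of the 42 genes, and they are shown here for the E-boxes to which TFEB and TFE3 are known to bind. In the RefSeq windows of GRCm38.p6, which run from 250 bases before to 50 after each start site, the E-box CACGTG on either strand was present in 10 of 33 of these genes (30.3%) and in 8.09% of 27025 genes with a window. All 10 held it in the extended form TCACGTG, also searched on both strands, which overlaps the first motif and was present in 4.29% of all genes. The 10 were Lamp1, Mcoln1, Clcn7, Cln3, Lamtor1, Lamtor4, Atp6v0b, Atp6v0d1, Atp6v0e and Atp6v1a. The stretches below, written 5′ to 3′ along the gene with the E-boxes in capitals, come from the genes with more than 1 box before the start and from Atp6v1a, the most abundant gene of the set.
Lamp1, chr8:13159088-13159160 (+): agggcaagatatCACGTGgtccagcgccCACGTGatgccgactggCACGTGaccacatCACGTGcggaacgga
Mcoln1, chr8:3500436-3500491 (+): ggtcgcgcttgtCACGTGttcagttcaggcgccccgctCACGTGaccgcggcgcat
Cln3, chr7:126583340-126583397 (-): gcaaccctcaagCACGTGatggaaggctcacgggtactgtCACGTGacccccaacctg
Atp6v0b, chr4:117887330-117887377 (-): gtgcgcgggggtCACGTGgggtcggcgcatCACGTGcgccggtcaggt
Lamtor4, chr5:138255350-138255395 (+): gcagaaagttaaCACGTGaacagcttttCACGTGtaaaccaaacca
Atp6v1a, chr16:44139373-44139402 (-): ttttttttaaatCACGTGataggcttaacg
Lamp1 thus carried 4 boxes between 61 and 15 bases before its start, and the single box of Atp6v1a began 131 bases before it. A match of letters is a description of the sequence and does not show a bound site.

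None of the 42 genes passed an adjusted p of 0.05 in edgeR's quasi-likelihood test, with 0.218% of all 19268 genes called (0.161% lower and 0.0571% higher). DESeq2 gave an adjusted p to 29 of them and called 1, Atp6v0a2, with 1.25% of 5820 genes called in all. At an unadjusted p under 0.05 edgeR had 7 of them (16.7%), and DESeq2 also 7, where 7.07% of all genes had such a p in DESeq2. The edgeR genes were 5 lower and 2 higher in 5XFAD;Neu cKO, and 7.95% of all genes had such a p (4.01% lower, 3.94% higher). They were Atp6v0a2, Lamp2, Atp6v0e2, Lamp1 and Atp6ap1 on the lower side, and Rogdi and Atp6v1a on the higher side. With library size as the only scaling 6 genes had such a p, 2 lower (Atp6v0a2 and Lamp2) and 4 higher (Atp6v1a, Rogdi, Atp6v1b2 and Ostm1), where 9.36% of all genes had such a p (2.06% lower, 7.3% higher). Both scalings shared 4 genes, and under the second the p of Atp6v0e2, Atp6ap1 and Lamp1 was 0.0905, 0.171 and 0.174. With TMM the count was 4 without 5XFAD replicate 2 and also 4 without 5XFAD;Neu cKO replicate 5. The shares over all genes given here are not matched for level. Of the 42 genes, 38 had a mean of 5 CPM or more, and the lowest of these, Mcoln1, stood at the 45.3 percentile of all genes tested. The libraries of the groups did not overlap for 2 genes, Atp6v0a2 and Lamp2, both lower, where 1.3% of all genes were without overlap and 0.721% were so in that direction. Of the 42 estimates 24 were below 0 (57.1%, against 50.1% of all genes), and their median log2 fold change was -0.07, where that of all genes tested was -0.00056. With library size as the only scaling 19 estimates were below 0 and the median became 0.02, while the median of all genes moved to 0.09.

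**Figure D1:**
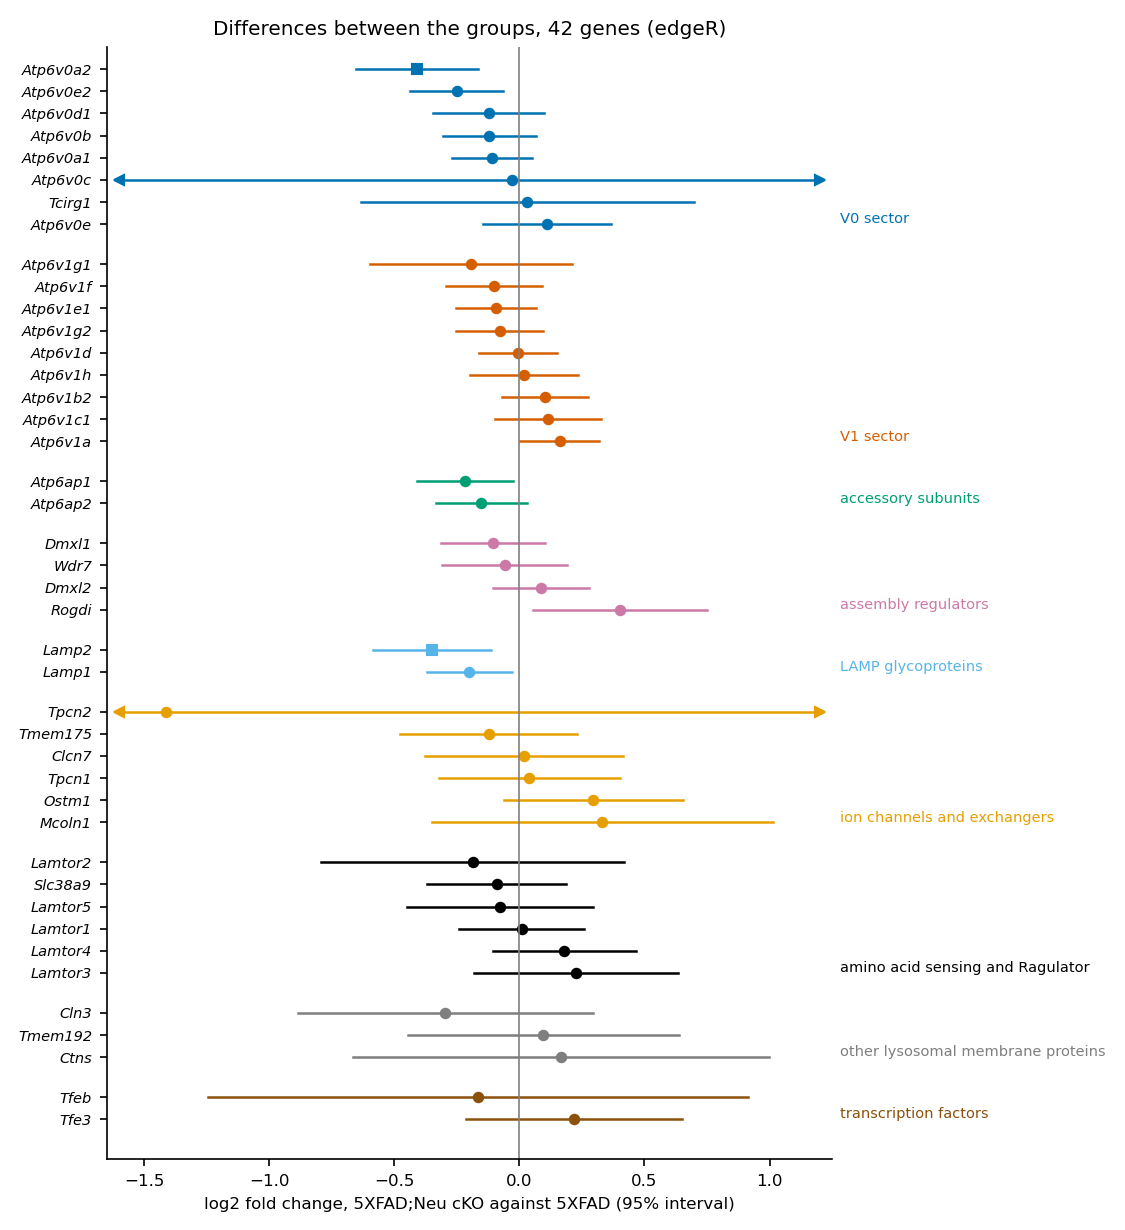
Log2 fold change of 42 genes, 5XFAD;Neu cKO against 5XFAD (edgeR, n = 5 per group), by role, with 95% intervals; squares mark genes whose groups do not overlap and arrowheads mark intervals that run past the axis. The 2 squares, Atp6v0a2 at -0.41 and Lamp2 at -0.35, lie left of 0, Rogdi at 0.40 lies right of it, and 35 genes have intervals that include 0.

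The V0 sector, which forms the proton path through the membrane, had 6 of 8 estimates below 0, with a median log2 fold change of -0.11 and 2 genes at an unadjusted p under 0.05. Atp6v0a2 encodes the a2 subunit, known from Golgi and endosomal pumps (chr5:124766641-124801519; gene positions are in GRCm39 from here on). Its level was 54.8, 62.4, 70.2, 62.4 and 63.1 CPM in 5XFAD replicates 1 to 5. In 5XFAD;Neu cKO replicates 1 to 5 it was 49.7, 43.2, 43.7, 46.8 and 52.4 CPM. All 5 libraries of the second group lay below all 5 of the first, with means of 47.2 ± 3.93 and 62.6 ± 5.45 CPM (SD, n = 5 each). The log2 fold change was -0.41 (SE 0.12), a difference of -24.7% with a 95% interval of -36.4% to -10.9%. In edgeR the p was 0.00136 before and 0.224 after adjustment, and an exact two-sided permutation test of mean log2 CPM gave 0.00794, the smallest p that 5 libraries against 5 allow. DESeq2 gave the same fold change of -0.41 with an adjusted p of 0.0437, and it called 1.25% of the 5820 genes that it gave an adjusted p. Over those same 5820 genes, edgeR's adjusted p for Atp6v0a2 was 0.0909, and over all alternatives tried with edgeR or DESeq2 it ran from 0.0437 to 0.484.

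Atp6v0e2 encodes the more abundant of both e subunits, small proteins of the V0 sector (chr6:48514504-48522309). Its level was 171.5, 188.6, 168.3, 167.2 and 143.0 CPM in 5XFAD replicates 1 to 5, and 132.0, 140.9, 146.9, 158.3 and 127.1 CPM in 5XFAD;Neu cKO replicates 1 to 5. The groups overlapped through 5XFAD replicate 5, which lay below 2 libraries of the other group. The log2 fold change was -0.25 (SE 0.09), with an adjusted p of 0.436 in edgeR. Its paralog Atp6v0e had an estimate of the other sign, 0.11 (95% interval -0.15 to 0.37), with 50.97, 47.87, 54.88, 48.84 and 54.98 CPM in 5XFAD and 61.88, 52.60, 65.64, 57.21 and 40.80 CPM in 5XFAD;Neu cKO. The highest 3 libraries for Atp6v0e and also the lowest one were 5XFAD;Neu cKO libraries.

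The other V0 subunits overlapped between the groups throughout. Atp6v0a1, the a1 subunit abundant at nerve terminals, had 302.9, 347.5, 301.8, 330.3 and 335.1 CPM in 5XFAD and 327.2, 296.7, 297.2, 313.8 and 265.3 CPM in 5XFAD;Neu cKO. Its log2 fold change of -0.11 had a 95% interval of -0.27 to 0.05. Atp6v0b and Atp6v0d1, a proteolipid and the stalk subunit d, both had a log2 fold change of -0.12, with intervals that included 0 (-0.30 to 0.06 and -0.34 to 0.10). Tcirg1, the a3 subunit known from osteoclasts and lysosomes, stood at 4.2 to 8.53 CPM over all libraries. For Tcirg1 the log2 fold change was 0.03 with an interval of -0.63 to 0.70. The summed level of the 8 V0 genes was 846 to 982 CPM in 5XFAD and 755 to 853 CPM in 5XFAD;Neu cKO, so that the ranges met at their edges. With library size as the only scaling the estimate of Atp6v0c turned positive, the other 7 kept their sign and the median was -0.03.

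The V1 sector had 5 estimates below 0 and 4 above among 9 genes, with a median log2 fold change of -0.0066 and summed levels of 1705 to 2033 CPM in 5XFAD and 1781 to 2014 CPM in 5XFAD;Neu cKO. Atp6v1a, the catalytic A subunit (chr16:43887852-43960076), was the only one at an unadjusted p under 0.05 with TMM. Its level was 446.5, 402.6, 487.3, 449.1 and 415.4 CPM in 5XFAD and 483.3, 424.9, 559.3, 492.0 and 500.6 CPM in 5XFAD;Neu cKO. The groups overlapped, since 5XFAD replicate 3 exceeded 2 of the 5XFAD;Neu cKO libraries. The log2 fold change was 0.16 (SE 0.08), with an adjusted p of 0.617 in edgeR.

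The remaining V1 genes overlapped between the groups and had intervals that included 0. Atp6v1d, a subunit of the central rotor, had 439.7, 425.2, 445.3, 386.2 and 351.9 CPM in 5XFAD and 404.0, 386.1, 401.5, 439.7 and 408.4 CPM in 5XFAD;Neu cKO, a log2 fold change of -0.0066 with an interval of -0.16 to 0.15. Atp6v1e1, a subunit of the peripheral stalk, had 311.4, 335.1, 348.2, 334.8 and 281.0 CPM in 5XFAD and 292.8, 309.7, 288.6, 299.0 and 321.2 CPM in 5XFAD;Neu cKO. For these abundant genes the 95% intervals were 0.31 to 0.32 log2 units wide. Atp6v1b2 and Atp6v1c1, the nucleotide-binding B2 subunit and the C1 subunit that detaches when sectors separate, had log2 fold changes of 0.10 and 0.11, and with library size as the only scaling Atp6v1b2 had 0.19 and an unadjusted p of 0.0341 in edgeR. Atp6v1h, a regulatory subunit, had 0.02, and Atp6v1f, a rotor subunit, had -0.10. With library size as the only scaling the estimates of Atp6v1d and Atp6v1g2 turned positive and the median of the 9 was 0.08.

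Both accessory subunits had estimates below 0. Atp6ap1 (Ac45), which takes part in the assembly of V0 (chrX:73340697-73348328), was at 177.1, 207.2, 172.8, 148.8 and 170.8 CPM in 5XFAD and 163.8, 143.8, 148.1, 173.1 and 125.4 CPM in 5XFAD;Neu cKO. Its log2 fold change was -0.22 (SE 0.10), with an adjusted p of 0.539 in edgeR. 5XFAD replicates 3, 4 and 5 lay within the range of the 5XFAD;Neu cKO libraries. 5XFAD;Neu cKO replicates 1 and 4 lay within the range of the 5XFAD libraries. Atp6ap2, the prorenin receptor, had 201.7, 184.4, 196.6, 185.5 and 191.2 CPM in 5XFAD and 183.0, 136.3, 194.0, 184.6 and 165.1 CPM in 5XFAD;Neu cKO. For Atp6ap2 the log2 fold change was -0.15, with an adjusted p of 0.746 in edgeR.

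Among the assembly regulators, which join V1 to V0 in a complex related to yeast RAVE, Rogdi had the highest log2 fold change of the 42 genes. Rogdi (chr16:4826587-4831462), a gene of the epilepsy and enamel disorder Kohlschütter-Tönz syndrome, had 21.5, 18.1, 27.2, 28.5 and 17.5 CPM in 5XFAD. It had 25.2, 32.7, 36.6, 25.7 and 29.4 CPM in 5XFAD;Neu cKO. 5XFAD replicates 3 and 4 lay within the range of the second group and the other 3 below it. The log2 fold change was 0.40 (SE 0.17, 95% interval 0.06 to 0.75), with an adjusted p of 0.522 in edgeR. The others had estimates nearer 0: Dmxl2 (rabconnectin-3A) had 0.09, and Dmxl1 and Wdr7 had -0.11 and -0.06, all with intervals that included 0.

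Both LAMP glycoproteins, which line the inner face of the lysosomal membrane, were at an unadjusted p under 0.05 with TMM, and Lamp2 alone with library size as the only scaling. Lamp2, needed for the fusion of autophagosomes and for chaperone-mediated autophagy (chrX:37488520-37545340), had 70.9, 68.7, 68.1, 68.8 and 66.2 CPM in 5XFAD. It had 60.2, 57.0, 58.4, 48.3 and 45.1 CPM in 5XFAD;Neu cKO. The 5XFAD libraries lay close together and above every library of the other group, with means of 68.5 ± 1.69 and 53.8 ± 6.68 CPM (SD, n = 5 each). The log2 fold change was -0.35 (SE 0.12, 95% interval -0.59 to -0.11), and the edgeR p was 0.00441 before and 0.342 after adjustment. The exact permutation p was 0.00794. Lamp1 (chr8:13209121-13227360), whose promoter held 4 E-boxes, had 257.0, 270.1, 259.6, 248.1 and 242.6 CPM in 5XFAD and 231.4, 222.6, 223.3, 247.7 and 187.3 CPM in 5XFAD;Neu cKO. The overlap came from 1 library, 5XFAD;Neu cKO replicate 4, which exceeded 5XFAD replicate 5 alone. For Lamp1 the log2 fold change was -0.20 (SE 0.08), with an adjusted p of 0.50 in edgeR.

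**Figure D2:**
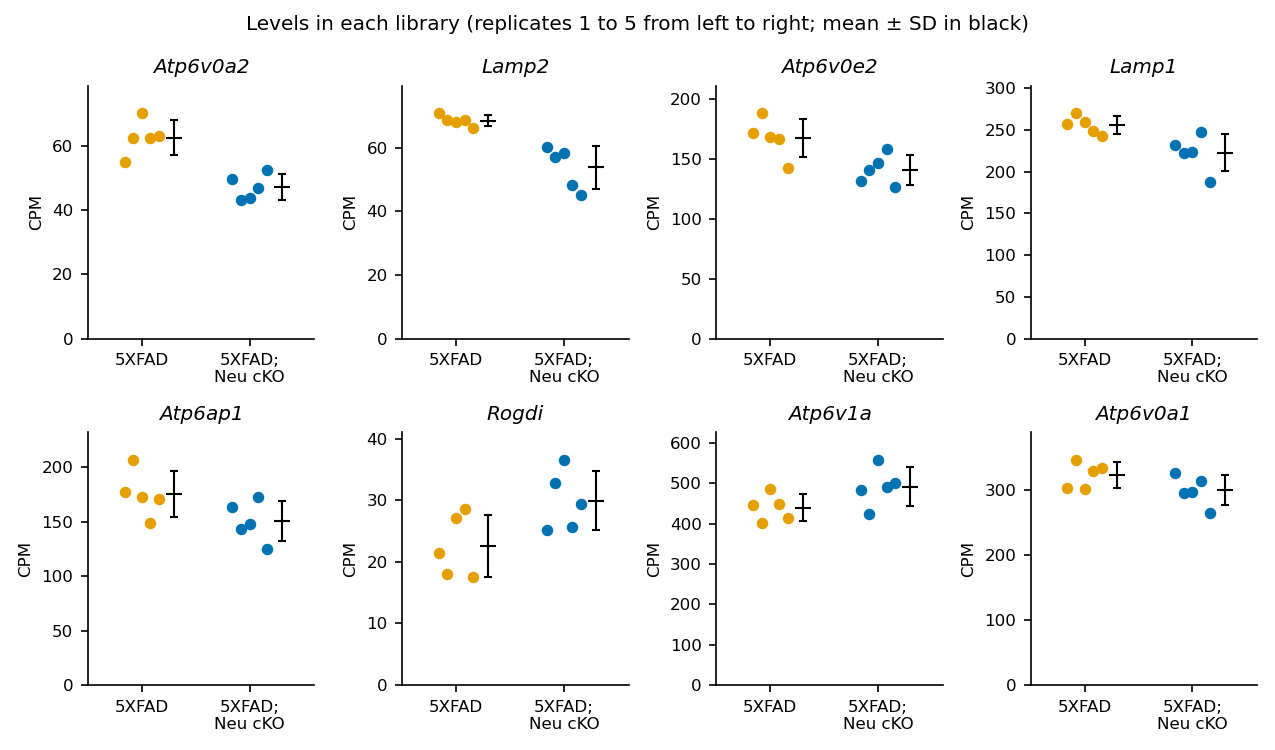
CPM in each library for the 7 genes at an unadjusted p under 0.05 and for Atp6v0a1, with replicates 1 to 5 from left to right and the mean ± SD in black (n = 5 per group). The groups are apart for Atp6v0a2 and Lamp2, overlap in the other 6 panels, and are higher on average in 5XFAD;Neu cKO for Rogdi and Atp6v1a.

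Markers of microglia, a cell type rich in lysosomes, moved with the groups. All 14 tested of 15 markers had estimates below 0, with a median log2 fold change of -0.69, and 6 fell past edgeR's threshold (Cx3cr1, Csf1r, C1qb, C1qc, Tyrobp and Ctss). Their summed level was 504 to 736 CPM in 5XFAD and 337 to 428 CPM in 5XFAD;Neu cKO, without overlap, and the lowest group mean of a marker was 5.37 CPM, that of Aif1. The part of microglia in the lower levels of Atp6v0a2, Lamp2, Lamp1, Atp6v0e2 and Atp6ap1 was not tested. Of the astrocyte markers 8 of 10 were below 0 (5 with library size as the only scaling) and Gfap fell past edgeR's threshold, with sums of 5492 to 6482 CPM in 5XFAD and 5547 to 6075 CPM in 5XFAD;Neu cKO. Of the oligodendrocyte markers 9 of 10 were below 0 and none passed in edgeR or DESeq2 (which gave 8 of them an adjusted p), with 5 and 2 at an unadjusted p under 0.05, and sums of 2045 to 3007 and 1866 to 2926 CPM. Markers of excitatory neurons, inhibitory neurons and endothelial cells had median log2 fold changes of -0.02, 0.0077 and 0.06. None of these 30 passed the threshold in edgeR, nor did any of the 9, 6 and 5 of them to which DESeq2 gave an adjusted p, and 1, 3 and 0 of them had an unadjusted p under 0.05 with either tool.

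The 6 ion channels and exchangers gave no gene at an unadjusted p under 0.05 in edgeR with TMM or in DESeq2. Ostm1, the partner subunit of the ClC-7 chloride and proton exchanger, had 31.2, 27.2, 37.1, 23.3 and 16.4 CPM in 5XFAD and 47.3, 25.8, 28.9, 37.2 and 28.2 CPM in 5XFAD;Neu cKO. Its log2 fold change was 0.29 with a 95% interval of -0.06 to 0.65. For Ostm1 the unadjusted edgeR p was 0.105, and it fell under 0.05 with library size as the only scaling (0.0384) and without 5XFAD replicate 3 (0.0234) or 5XFAD;Neu cKO replicate 2 (0.0496). Clcn7, which encodes the exchanger itself, had 0.02 with an interval of -0.38 to 0.41. Mcoln1, the lysosomal calcium release channel TRPML1, was at 3.75 to 6.59 CPM in 5XFAD and 5.72 to 8.47 CPM in 5XFAD;Neu cKO, and its log2 fold change of 0.33 had an interval of -0.35 to 1.01. Tmem175, a potassium and proton channel, had -0.12, and Tpcn1, a cation channel of endolysosomes, had 0.04. Tpcn2 had 13 reads in all, 0, 5, 2, 1 and 1 in 5XFAD and 0, 1, 1, 0 and 2 in 5XFAD;Neu cKO, so no difference could be detected at this depth.

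Slc38a9, the lysosomal arginine sensor, and the 5 Ragulator subunits also overlapped between the groups, with 3 estimates below 0 and 3 above. Lamtor1, which anchors Ragulator to the membrane, had the narrowest interval of the 6, -0.24 to 0.26 around a log2 fold change of 0.0094. Lamtor3 and Lamtor4 had 0.23 and 0.18, and Lamtor2 and Lamtor5 had -0.19 and -0.08. Slc38a9 had -0.09, with 36.1 to 58.4 CPM in 5XFAD and 39.2 to 55.5 CPM in 5XFAD;Neu cKO.

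Of the other membrane proteins, Cln3, mutated in juvenile Batten disease, had a log2 fold change of -0.30 with an interval of -0.89 to 0.29. Ctns, the cystine exporter, had 0.17 (-0.67 to 1.00), and Tmem192, an integral lysosomal protein, had 0.09 (-0.45 to 0.64). Tfeb was counted 31, 16, 23, 11 and 9 times in 5XFAD and 3, 48, 13, 10 and 17 times in 5XFAD;Neu cKO, which held both its lowest and its highest library. Its log2 fold change of -0.17 had an interval of -1.25 to 0.91, too wide to show a difference at this depth. Tfe3 was more abundant, at 9.69 to 16.8 CPM in 5XFAD and 14.0 to 20.0 CPM in 5XFAD;Neu cKO, with a log2 fold change of 0.22 (-0.21 to 0.65). The 10 genes with an E-box in the promoter window had a median log2 fold change of 0.01 with 6 estimates above 0, and the 23 with a window and no E-box had a median of -0.09 with 7 above 0. Of the genes at an unadjusted p under 0.05, Lamp1 and Atp6v1a carried the motif and lay on opposite sides of 0.

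The division of reads within families of paralogs was described without a test, since a share rests on the same counts as the levels above. Atp6v0a2 took 15.0%, 15.1%, 18.5%, 15.7% and 15.6% of the reads of the a subunits in 5XFAD and 12.9%, 12.5%, 12.7%, 12.7% and 16.1% in 5XFAD;Neu cKO. In 4 of 5 libraries of the second group its share was below every 5XFAD library, and replicate 5 was the exception. Atp6v0a1 held 82.4% ± 1.66 and 84.7% ± 1.92 of the family, and Tcirg1 held 1.68% ± 0.52 and 1.89% ± 0.512, in 5XFAD and 5XFAD;Neu cKO (SD, n = 5 each). Atp6v0e took 22.9%, 20.2%, 24.6%, 22.6% and 27.8% of the e subunits in 5XFAD and 31.9%, 27.2%, 30.9%, 26.5% and 24.3% in 5XFAD;Neu cKO, where the groups overlapped through replicate 5 of each.

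**Figure D3:**
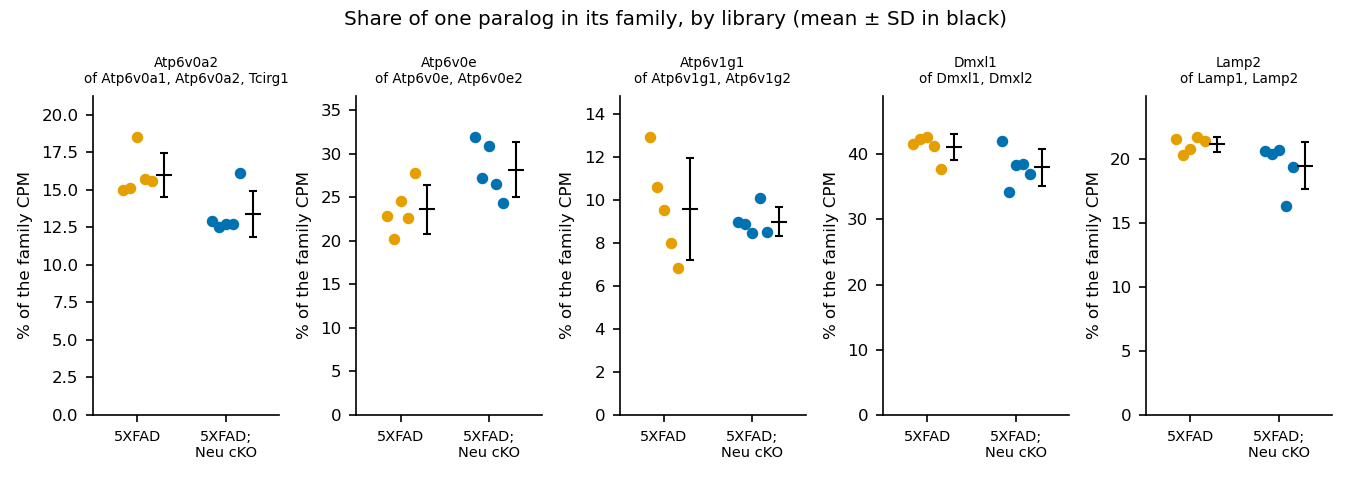
Share of one gene in the CPM of its family of paralogs, in percent, by library (replicates 1 to 5 from left to right), with the mean ± SD in black (n = 5 per group). The share of Atp6v0a2 averaged 16.0% in 5XFAD and 13.4% in 5XFAD;Neu cKO, the share of Atp6v0e averaged 23.6% and 28.2%, and the groups overlap in all 5 panels.

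Among the G subunits more reads were counted for Atp6v1g2, the form found mainly in neurons, than for the widely expressed Atp6v1g1. Of the windows of 76 bases in the 3′ end of Atp6v1g1, 52.0% had copies elsewhere, against 0% for Atp6v1g2. Atp6v1g2 was at 174.2, 182.5, 199.1, 187.3 and 168.8 CPM in 5XFAD and 173.1, 169.8, 179.3, 159.3 and 182.3 CPM in 5XFAD;Neu cKO. Atp6v1g1 was at 25.8, 21.6, 20.9, 16.2 and 12.3 CPM in 5XFAD and 17.0, 16.5, 16.5, 17.8 and 16.9 CPM in 5XFAD;Neu cKO. The 5XFAD libraries were spread wide for Atp6v1g1 and those of 5XFAD;Neu cKO lay within that spread, with shares of the family of 9.55% ± 2.35 and 8.97% ± 0.652. Dmxl1 took 41.1% ± 1.92 of the reads on Dmxl1 and Dmxl2 in 5XFAD and 38.0% ± 2.86 in 5XFAD;Neu cKO. Dmxl1 was at 80.2, 97.8, 97.3, 86.1 and 90.7 CPM against 88.6, 80.7, 87.6, 81.8 and 81.5 CPM, and Dmxl2 at 112.4, 133.3, 131.1, 123.0 and 149.0 CPM against 121.9, 155.4, 141.1, 130.6 and 139.2 CPM, for 5XFAD against 5XFAD;Neu cKO. Lamp2 took 21.2% ± 0.613 of the LAMP reads in 5XFAD and 19.5% ± 1.86 in 5XFAD;Neu cKO, with 5XFAD;Neu cKO replicate 4 lowest at 16.3%.

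Levels differed widely among the 42 genes. The most abundant were Atp6v1a, Atp6v1d and Atp6v1e1, with means over all libraries of 466.1, 408.8 and 312.2 CPM, and Atp6v0a1 followed at 311.8 CPM. The neighbours Atp6v1e1 and Atp6v0a1 did not differ beyond their spread. The 3′ ends of Atp6v1d and Atp6v1e1 overlap genes on the opposite strand. Reads there may have been set aside or counted for the wrong gene, so the ranks of both are uncertain. Atp6v1a stood at the 99.2 percentile of all genes tested. The mean of every channel, Ragulator subunit and transcription factor was below that of Wdr7, at 59.8 CPM. For Lamtor1, at 57.9 CPM, and for Lamtor3 and Lamtor5 this does not rank the level, since their 3′ ends have copies elsewhere. The lowest means were those of Tfeb, Atp6v0c and Tpcn2, at 3.22, 1.1 and 0.246 CPM, and that of Atp6v0c does not rank its level, since its 3′ end has copies elsewhere.

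**Figure D4:**
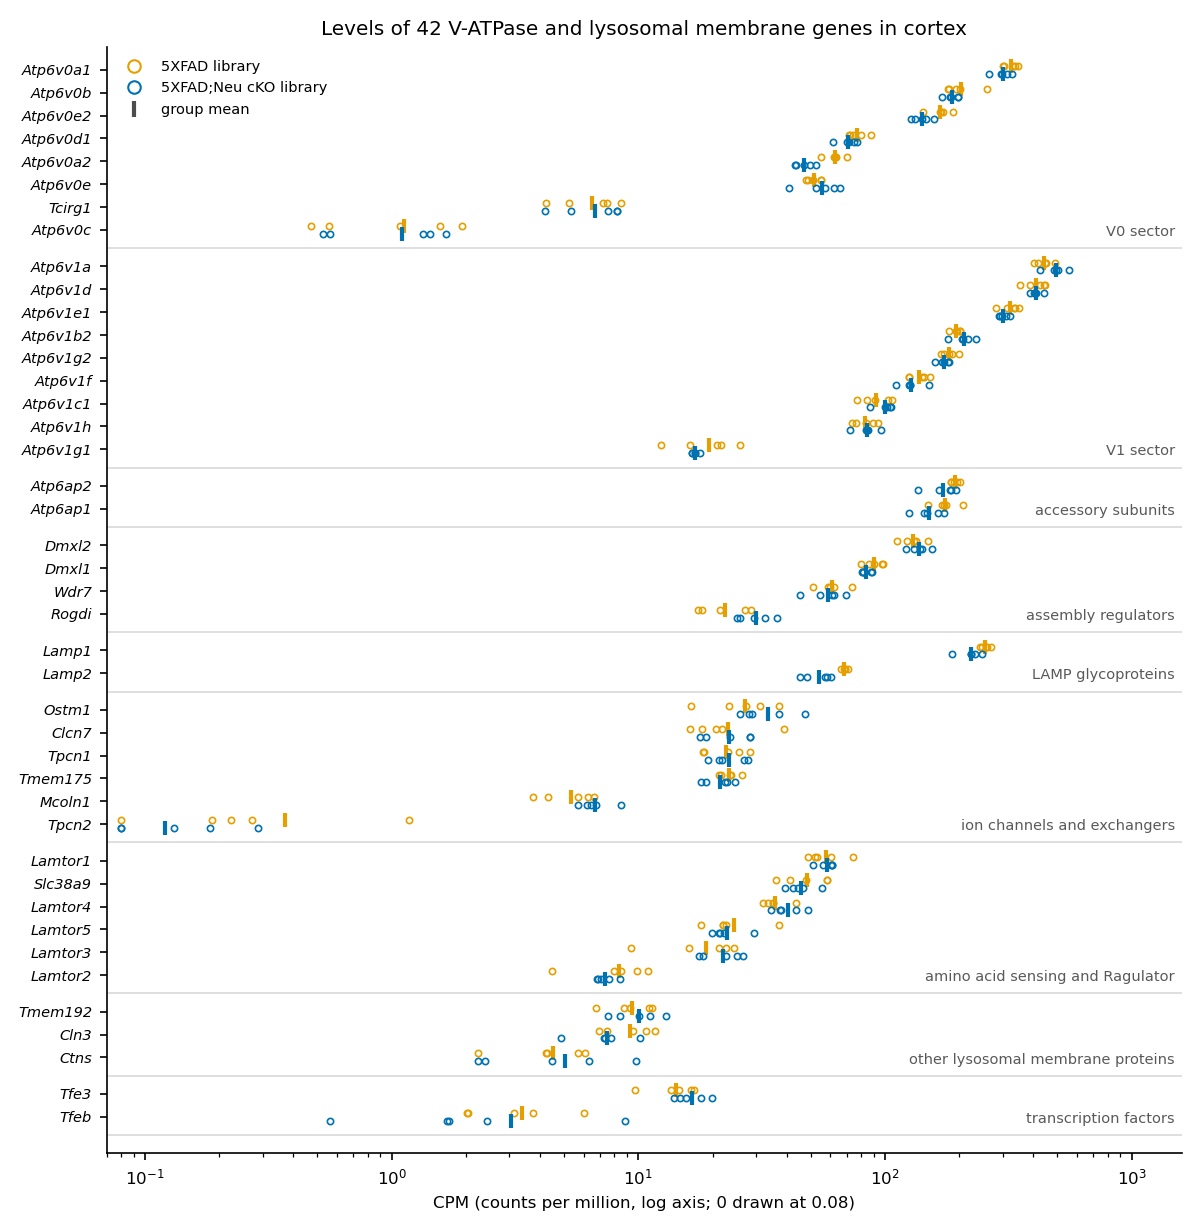
CPM of 42 genes in each library on a log axis, ordered by mean level within each role, with vertical bars for the group means (n = 5 per group); libraries with no read are drawn at 0.08. The upper range, up to 559.3 CPM for Atp6v1a, holds mostly subunits of the pump, with Lamp1 among them. Lower pump subunits include Atp6v1g1 and Tcirg1, with means of 18.2 and 6.61 CPM. Atp6v0c lies near 1 CPM and Tpcn2 below it.

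Atp6v0c, the proteolipid of the proton-carrying ring and present in several copies in each pump, was counted 10, 2, 8, 3 and 7 times in 5XFAD and 3, 9, 4, 8 and 10 times in 5XFAD;Neu cKO. That is far below the other core subunits, and its interval of -1.77 to 1.71 could show no difference. In GRCm39, 100% of the windows of 76 bases in the last 400 exonic bases of Atp6v0c had an exact copy elsewhere. One copy, at chr6:37783627-37784026, matched all 400 bases and held no annotated exon. Reads from such windows have several places in the genome, and the counting set such reads aside, so the level of Atp6v0c is uncertain. Copies covered 52.0% of the windows of Atp6v1g1, 32.9% of Lamtor3, 16.9% of Lamtor5, 12.9% of Atp6v1f and 11.7% of Lamtor1, and none of those of the other 36 genes. In shorter windows of 50 bases the shares of these genes were 62.96%, 52.71%, 46.72%, 36.75% and 32.76%, and Tpcn1 had 1.14%. The 3′ ends of Atp6v0b, Atp6v0e2, Atp6v1d, Atp6v1e1, Lamp1, Mcoln1, Tmem175, Lamtor4 and Atp6v0c overlap genes on the opposite strand. The strand setting of the counting was not given in the sources used here. Reads there may be missing from these counts or may come from the partner, and which of these holds cannot be told.

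Among the 38 genes with a mean of 5 CPM or more, 5XFAD;Neu cKO replicate 2 and 5XFAD replicate 5 were the lowest of their group for 13 genes each, and 5XFAD replicate 2 was the highest for 13.

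Related genes were read from lists that hold no member of the set. Of 15 other V-ATPase genes, 10 passed the filter, 6 had estimates below 0 (3 with library size as the only scaling), and none had an unadjusted p under 0.05 in edgeR or DESeq2. Of 31 other lysosomal membrane genes, 25 had estimates below 0 (20 with library size as the only scaling), with a median log2 fold change of -0.14, and 1 fell past the threshold with TMM and none with that scaling. This was Laptm5, a membrane protein of blood-derived cells and microglia, with 38.5 ± 4.39 CPM in 5XFAD and 24.2 ± 3.84 CPM in 5XFAD;Neu cKO (SD, n = 5 each). Its log2 fold change was -0.67 with an adjusted p of 0.0357 in edgeR. Of 28 genes of mTORC1 signalling at the lysosome, 11 were below 0, with a median of 0.03, and none passed the threshold in edgeR, nor did any of the 10 to which DESeq2 gave an adjusted p, with 1 at an unadjusted p under 0.05 in each. Of 35 genes for enzymes and other proteins of the lysosomal lumen, 28 were below 0, with a median of -0.21. With library size as the only scaling 24 of them were below 0, with a median of -0.12. With TMM 3 fell past the threshold. These were the proteases Ctsd and Ctss, by 0.69 and 0.91 on the log2 scale (edgeR adjusted p 5.24e-07 each), and the cholesterol carrier Npc2, which fell by 0.64 on the log2 scale (edgeR adjusted p 0.000932). Ctss is also in the list of microglia markers, whose values are given above. The medians of these lists were not tested against that of the 42 genes.

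**Figure D5:**
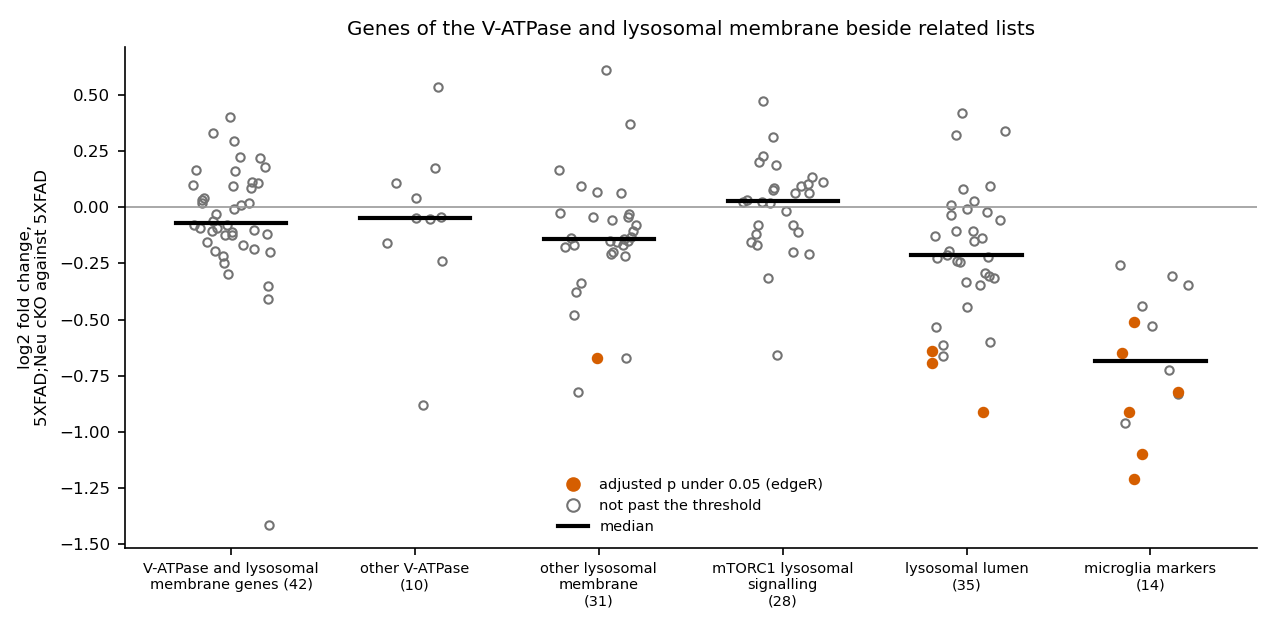
Log2 fold change of each gene tested, 5XFAD;Neu cKO against 5XFAD (edgeR, n = 5 per group), for the 42 genes and 5 other lists, with the number of genes in parentheses, bars for the medians and filled points for an adjusted p under 0.05. No point of the 42 genes is filled, while 1 is among the other lysosomal membrane genes, 3 among the lumen genes and 6 among the microglia markers, where Ctss is in both of the last.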

How the data were processed

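Cortex RNA of 10 mice was sequenced as QuantSeq 3′ single reads. Per the labels and the study's methods, the authors trimmed reads with bbduk, aligned them with STAR 2.7.3a to GRCm39 and counted them per gene with HTSeq (0.9.1 in the submitters' processing notes). The authors deposited these counts, whole numbers with no normalization, and they were used as deposited. Strand setting was not given in the sources used here. Reads on no gene, 31.3% to 39.9% per library, entered neither library sizes nor tests. Names and GRCm39 places came from a GENCODE annotation, and 52610 of 53700 identifiers had a name.

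Groups followed the labels. The main test was edgeR's quasi-likelihood test (version 4.0.16 in R 4.3.3, TMM, group alone in the model), run on the 19268 genes with a total over 10 and adjusted by Benjamini-Hochberg, with a threshold of 0.05. Common dispersion gave a biological coefficient of variation of 0.281. The steps were tested on simulated data. CPM are TMM-scaled. P-values set the difference between the groups against the spread between these libraries, which edgeR estimates with information from all genes tested. The 20 within-group pairs of libraries all differed by more than sampling noise (smallest chi-square per degree of freedom 5.70). Same-numbered replicates were not paired (correlation of deviations -0.01 to 0.02). The members and lists were chosen with earlier results of these data known. All members could be named, values per library being given for those at an unadjusted p under 0.05, paralog families and the 3 most and 3 least abundant, and of other lists genes past the threshold. Alternatives were DESeq2 1.42.0, its size factors in edgeR, library size alone, filterByExpr, no filter, a robust fit, no mitochondrial genes, a replicate block, each library left out and, chosen after seeing the data, edgeR adjusted over the genes DESeq2 kept. An unadjusted p under 0.05 was not a call. Symbol Fcrls had no match.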

Additional observations from a re-analysis of the deposited data

Results flagged for a closer look

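Of 84 groups of 5 libraries (42 genes in each of both groups), 7 held a library far from the others on the CPM scale and 1 of these also on the log2 CPM scale. The gap to the nearest other library was set against the range of the group, with Dixon's critical value of 0.71 for 5 samples, which chance alone exceeds in about 1 of 20 groups. Lamtor5, a Ragulator subunit, had 29.4 CPM in 5XFAD;Neu cKO replicate 4, where the other 4 libraries of that group had 20.0 to 22.3 CPM, and the gap made up 0.752 of the range in CPM and 0.714 on the log2 scale. In the other 6 groups the gap was 0.515 to 0.704 of the range on the log2 scale. The library was 5XFAD replicate 2 in 5 of them, each time the highest of its group. Lamtor5 had 37.1 CPM there against 17.9 to 22.7 in the other 4 libraries, Lamtor4 had 43.4 CPM against 32.1 to 35.1, and Atp6v0b had 259 CPM against 181 to 202. Clcn7 had 38.9 CPM against 16.2 to 21.9, and Tpcn2, with 5 reads, had 1.17 CPM against 0 to 0.272. Tfeb had 8.83 CPM in 5XFAD;Neu cKO replicate 2 and 0.561 to 2.44 CPM in the other 4 libraries of that group.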

How the results depend on the processing

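No member passed the threshold in edgeR under the alternatives tried, and 1 did with DESeq2 (Atp6v0a2), which gave 29 of them an adjusted p. Members at an unadjusted p under 0.05 numbered 7, with 4 to 8 when a library was left out and 6 with library size as the only scaling, of which 4 were shared: 5 lower and 2 higher became 2 lower and 4 higher. The median log2 fold change of the members was -0.07, with -0.07 to -0.03 when a library was left out, and it reversed to 0.0249 with library size as the only scaling. Its distance from the median of all genes was then -0.06, against -0.07 with TMM. Under that scaling 5 single estimates also reversed, to 0.0557 for Atp6v0c, 0.0835 for Atp6v1d, 0.00974 for Atp6v1g2, 0.0322 for Wdr7 and 0.0177 for Lamtor5. The sign of 29 members held in each of up to 19 alternatives that gave them a value, and 13 members reversed in at least one. When a library was left out, the reversed members ranged from -0.22 to 0.25 for Atp6v0c, -0.0564 to 0.0253 for Atp6v1d, -0.0835 to 0.28 for Clcn7, -0.0314 to 0.14 for Tpcn1, -1.06 to 0.14 for Tfeb, -0.0871 to 0.16 for Tcirg1, -0.0328 to 0.0683 for Atp6v1h, -0.18 to 0.12 for Lamtor5, -0.13 to 0.0213 for Wdr7, -0.0493 to 0.11 for Lamtor1, -0.21 to 0.35 for Ctns and -0.0138 to 0.18 for Tmem192. Atp6v0a2 and Lamp2 kept an unadjusted p under 0.05 in all 19, with adjusted p of 0.0437 to 0.484 and 0.0968 to 0.651 by edgeR or DESeq2. Among the 19, edgeR adjusted over the genes DESeq2 kept has the fold changes and unadjusted p of the main fit. Neither signs nor unadjusted p could change there. With the replicate number as a block, although the numbers do not pair the libraries, 0 members passed the threshold, 7 had an unadjusted p under 0.05 and their median was -0.06, while the genes called in all rose from 42 to 112. The genes called in all were 73 with DESeq2, 103 without a filter on low counts, 67 when adjusted over the genes DESeq2 kept, and 26 to 72 when a library was left out. The cause of these differences was not tested. Depth limits Tpcn2, Atp6v0c and Tfeb, with 13, 64 and 181 reads in all.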
